A study of Mus musculus with 21 samples.

Results

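The genes described here lie in the same stretch of mouse chromosome 2. The stretch begins with the recombinase genes Rag2 and Rag1 and the adaptor gene Traf6 and runs through Cd44 to Apip and Ehf. They are 10 of the 21844 gene symbols in the deposited expression table, chosen by their names (Rag2, Rag1, Traf6, Prr5l, Commd9, Ldlrad3, Cd44, Pdhx, Apip and Ehf). The stretch was picked with the change of Traf6 in the Ctcf knockdown already known, so the values of its genes in that knockdown are a description. No p-value is given for them, and which of them passed the threshold set for all genes is stated without being read as a test of the stretch. The cells were EL4, a T lymphoma line of C57BL/6 mice grown in culture. In 2 libraries the cells carried a short hairpin RNA against Ctcf (shCTCF), and in the other 2 a hairpin against luciferase (shLuc), which has no target in mouse cells. Poly(A) RNA was sequenced. The labels do not say how or when the hairpins were introduced or how many hairpins were used, so other effects of the hairpin and those of lower Ctcf cannot be told apart. Separate cultures are not named in the labels, and the spread on which p-values rest is thus that between libraries and may be technical. The series holds 21 samples, and besides the 4 RNA libraries only the domain lists of 4 Hi-C libraries were used here. In bulk RNA, fewer cells that express a gene and less RNA per cell cannot be told apart.

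With its zinc fingers CTCF binds insulator DNA and, together with cohesin, anchors chromatin loops that bring some promoters and enhancers together and keep others apart. TRAF6 is a ubiquitin ligase that carries signals from Toll-like and interleukin-1 family receptors to NF-κB. RAG1 and RAG2 together cut DNA at antigen receptor genes in immature lymphocytes and are silent in mature T cells. CD44 is a hyaluronan receptor that increases on activated and memory T cells. PDHX is a structural subunit of the mitochondrial pyruvate dehydrogenase complex, APIP is an enzyme of methionine salvage, and EHF is an ETS transcription factor best known from epithelia.

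Promoter sequences of the genes are shown because the factor that was lowered binds DNA and because Apip and Pdhx start head to head. The RefSeq promoter table (build GRCm38.p6, each window 250 bases before to 50 bases after a start) held 11 windows for 9 of the 10 genes, and Ehf had no entry. Capitals mark CCCTC, a short part of the CTCF consensus, or its reverse complement GAGGG. The upstream parts of Traf6 (chr2:101678170-101678419, plus strand), Commd9 (chr2:101886012-101886261, plus strand) and Cd44 (chr2:102901666-102901915, minus strand) and the stretch between the starts of Pdhx and Apip (chr2:103073514-103073674, written on the strand of Apip) read as follows.
Traf6: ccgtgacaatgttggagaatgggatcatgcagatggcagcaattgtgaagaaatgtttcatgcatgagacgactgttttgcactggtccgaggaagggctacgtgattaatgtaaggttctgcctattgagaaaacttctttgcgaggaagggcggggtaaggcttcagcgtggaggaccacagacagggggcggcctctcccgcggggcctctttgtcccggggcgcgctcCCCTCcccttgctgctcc
Commd9: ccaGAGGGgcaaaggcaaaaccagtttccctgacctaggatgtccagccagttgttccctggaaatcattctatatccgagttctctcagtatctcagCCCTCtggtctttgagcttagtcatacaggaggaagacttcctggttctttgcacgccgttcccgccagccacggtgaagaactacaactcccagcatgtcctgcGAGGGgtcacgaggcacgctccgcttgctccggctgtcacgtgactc
Cd44: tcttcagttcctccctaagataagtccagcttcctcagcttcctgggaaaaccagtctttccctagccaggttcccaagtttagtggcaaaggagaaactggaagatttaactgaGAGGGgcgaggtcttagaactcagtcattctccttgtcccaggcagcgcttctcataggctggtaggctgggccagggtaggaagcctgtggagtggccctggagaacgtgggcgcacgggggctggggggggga
Apip and Pdhx: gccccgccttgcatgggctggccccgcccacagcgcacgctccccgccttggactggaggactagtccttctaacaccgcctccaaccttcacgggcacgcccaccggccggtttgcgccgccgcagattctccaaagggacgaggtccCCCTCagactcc

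The starts of Apip and Pdhx lie 161 bases apart on opposite strands, and their promoter windows share 261 bases. The 161 bases between the starts are rich in G and C (68.9%) and hold 14 CpG dinucleotides. The upstream parts of Traf6 and Commd9 hold 56.4% and 55.2% G and C with 13 and 11 CpG. The one of Cd44 has the same base composition as that of Traf6, 56.4%, but 5 CpG. The upstream parts of Rag2 and Rag1 have 3 CpG each, at 41.2% and 50.8% G and C. Over all 32851 windows of the table the medians are 52.4% and 6 CpG.

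A longer form of the CTCF consensus, CCA, any 2 bases, AG, any 2 bases and GGC, searched on both strands, was in 0 of the 11 windows, while 2.43% of all windows hold it. CCCTC was in 9 of the 11 windows against 66.0% of all windows, the E-box CANNTG in 7 against 72.3%, and the NF-κB form GGG, any 5 bases and CC in 6 against 50.8%. The 11 windows are not separate promoters, since Prr5l has several of them and those of Apip and Pdhx share 261 bases. A match in the shared bases is counted for both genes. CANNTG reads the same on both strands, and matches of different motifs may overlap. A match to these letters is not a binding site, and a window without a match says nothing of CTCF at other distances.

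The targeted gene fell in the knockdown libraries. Ctcf RNA lay at 26.5 and 26.4 RPKM (a read number corrected for gene length and library depth) in shCTCF cells, against 49.0 and 50.9 RPKM in shLuc cells. The adjusted p was 0.0075 in limma, a linear model with moderated variances fitted to the 9898 genes that averaged at least 1 RPKM. Its log2 change was −0.89 (standard error, SE, 0.08), and it did not pass without the shLuc library headed 2 or that headed 3 (adjusted p = 0.15 in both limma fits). Of 13 tested genes of CTCF and cohesin, 1 rose and 1, the targeted Ctcf, fell, with a median of −0.03. Among all tested genes 0.697% rose and 0.596% fell. The riser was Stag1, a cohesin subunit, with 42.1 ± 0.41 RPKM in shCTCF and 27.9 ± 1.4 RPKM in shLuc (SD, n = 2 each, log2 change 0.58, SE 0.08, adjusted p = 0.02 in limma, and 0.084 to 0.22 with 1 library left out). Rad21 and Yy1, the most highly expressed of the list, had log2 changes of −0.03 and −0.08 (adjusted p = 0.92 and 0.71 in limma). Each log2 change given here from limma on RPKM is the shCTCF mean minus the shLuc mean of log2(RPKM + 1). On this scale the change of low genes is understated, and the median over all tested genes was 0.012. Changes from limma-voom, a fit to recovered read numbers, and the authors' log2 fold changes are on other scales. The depth implied by the RPKM values was about 4312000 to 6085000 reads a library, and 1 read on 1 kb of RNA thus stood for 0.164 to 0.232 RPKM. Defining T cell markers were present, with Cd3e at 151 ± 8.73 RPKM in shCTCF and 151 ± 21.1 RPKM in shLuc cells (SD, n = 2 each). Of the 11 T cell markers with a row of their own, all were tested, 0 passed and 10 were lower in value. Their summed level was 1630 RPKM in both shCTCF libraries, against 1870 and 1920 RPKM in shLuc. The part of these lower markers in the values below was not tested.

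Of the region's 10 genes, 7 had a mean RPKM of 1 or more and entered the fit, and Rag2, Rag1 and Prr5l did not. By the threshold applied to all genes (an adjusted p of 0.05 in limma, Benjamini-Hochberg), Traf6 was among the genes that fell and Apip and Ehf among those that rose, 3 of the 7, which describes the genes that were picked and tests nothing about them. Among all tested genes 1.29% passed (69 higher, or 0.697%, and 59 lower, or 0.596%). Because the stretch was picked with this contrast known, nothing is read from that difference. The gene lists used here are short, so at such a share 0 or 1 passing genes in a list says little about it. For 6 of the 7, every shCTCF library lay on 1 side of every shLuc library, beside 44.0% of all tested genes. The plot of all tested genes shows where the 7 lie.

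**Figure D1:**
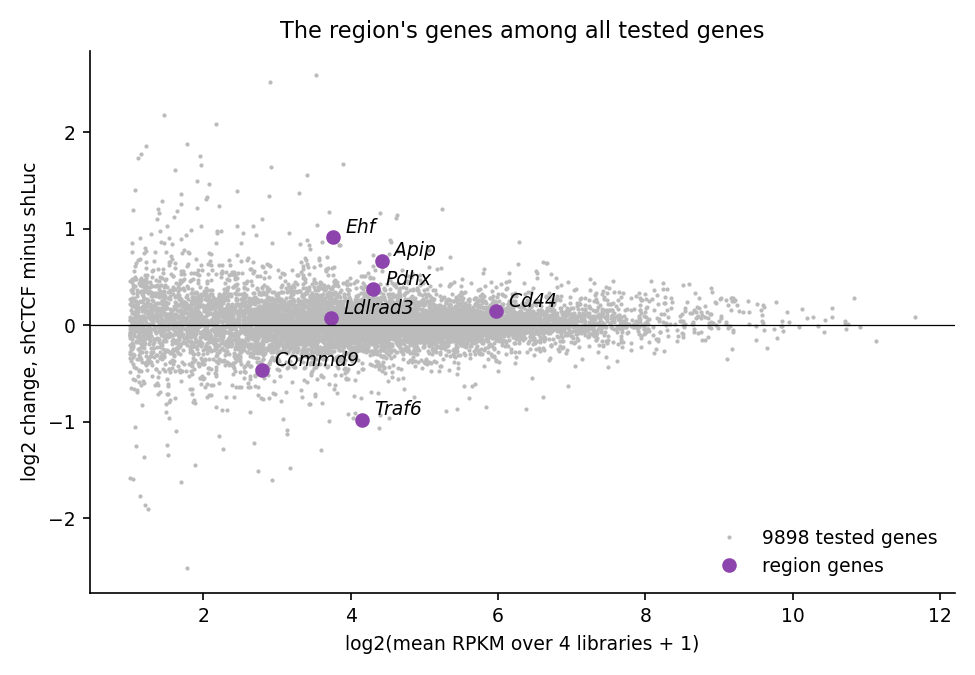
Log2 change (shCTCF minus shLuc, vertical) against log2(mean RPKM + 1) over the 4 libraries (horizontal) for the 9898 tested genes (grey) and the 7 tested genes of the region (purple). Traf6 lies at −0.98, Ehf at 0.91 and Apip at 0.67, while Cd44 lies at 0.14 and Ldlrad3 at 0.07.

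Traf6, whose protein builds the ubiquitin chains that activate the kinase TAK1, fell by the largest amount of the region's 7 tested genes. It lay at 10.8 and 11.1 RPKM in the shCTCF libraries, against 22.4 and 22.8 RPKM in the shLuc libraries. The groups are far apart and each pair of libraries is close together. These values rest on 257 and 351 reads in shCTCF, against 643 and 764 reads in shLuc. The means were 11 ± 0.222 RPKM in shCTCF and 22.6 ± 0.242 RPKM in shLuc (SD, n = 2 each), a ratio of 0.485. The log2 change was −0.98 (SE 0.09), the 26th lowest among 9898 genes. With 1 library left out it lay between −1.0 and −0.96, and it passed the threshold without the shCTCF library headed 2 or 3 but not without the shLuc library headed 2 or 3. The authors' deposited table of 435 changed genes rests on the same libraries and is no separate evidence. In it Traf6 ranks 1st by p-value, with a log2 fold change of −1.05, and Ctcf ranks 2nd.

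Besides Traf6, 44 receptors, adaptors, kinases and regulators of the TRAF6 signalling route had a row of their own. Of these 27 were tested and 0 passed in limma, beside 1.29% of all tested genes. In the same fit 1398 of all tested genes had an unadjusted p below 0.05. The log2 changes of the 27 had a median of −0.06, with 10 positive and 17 negative. Ube2n and Ube2v1, the ubiquitin-conjugating pair that works with TRAF6, had log2 changes of −0.04 (SE 0.09) and −0.03 (SE 0.08). Map3k7, which encodes TAK1, lay at 23.4 and 25.0 RPKM in shCTCF and 25.4 and 25.7 RPKM in shLuc. Its partners Tab1, Tab2 and Tab3 had log2 changes of −0.08, −0.05 and −0.08. The most highly expressed genes of the list were Sqstm1, a scaffold that binds TRAF6, with 94.2 ± 3.97 RPKM in shCTCF and 89.4 ± 5.69 RPKM in shLuc, and Tab2, with 77.5 ± 4.76 RPKM in shCTCF and 80.1 ± 0.552 RPKM in shLuc (SD, n = 2 each). Neither passed (adjusted p = 0.76 and 0.86 in limma).

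Upstream of TRAF6, the adaptor Myd88 averaged 17.0 ± 1.98 RPKM in shCTCF and 18.6 ± 1.21 RPKM in shLuc, and the kinase Irak4 6.64 ± 0.859 RPKM in shCTCF and 5.54 ± 0.483 RPKM in shLuc (SD, n = 2 each). Irak1 and Ecsit shared rows with other genes and were not read. Most receptors of the route were low. Tlr2, Tlr4 and Tlr7 had means of 0.0152, 0.0386 and 0.0116 RPKM over the 4 libraries, and Tnfrsf11a (RANK) was listed at 0 in all 4. The IL-18 receptor chain Il18r1 lay at 5.05 and 5.63 RPKM in shCTCF, against 3.82 and 3.03 RPKM in shLuc, and did not pass (log2 change 0.52, SE 0.15, adjusted p = 0.17 in limma).

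Within the TRAF family the order of levels differed between the groups at Traf6. In shCTCF cells Traf3 was highest at 31.2 ± 0.818 RPKM, followed by Traf2 at 16.1 ± 1.2 and Traf6 at 11 ± 0.222 RPKM. In shLuc cells Traf3 averaged 35.5 ± 3.29 RPKM, followed by Traf6 at 22.6 ± 0.242 and Traf2 at 15.9 ± 1.31 RPKM (SD, n = 2 each). Traf1, Traf2 and Traf3 had log2 changes of −0.19, 0.02 and −0.18, and Traf4 and Traf5 were below a mean of 1 RPKM. Of 23 NF-κB subunits and targets with a row of their own, 19 were tested and 0 passed, with a median of −0.02. Nfkb1 and Rela, its most highly expressed members, had log2 changes of −0.02 (SE 0.08, adjusted p = 0.95) and −0.01 (SE 0.10, adjusted p = 0.99) in limma, and Nfkbia, the inhibitor IκBα and itself a target, −0.29 (SE 0.09, adjusted p = 0.21).

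**Figure D2:**
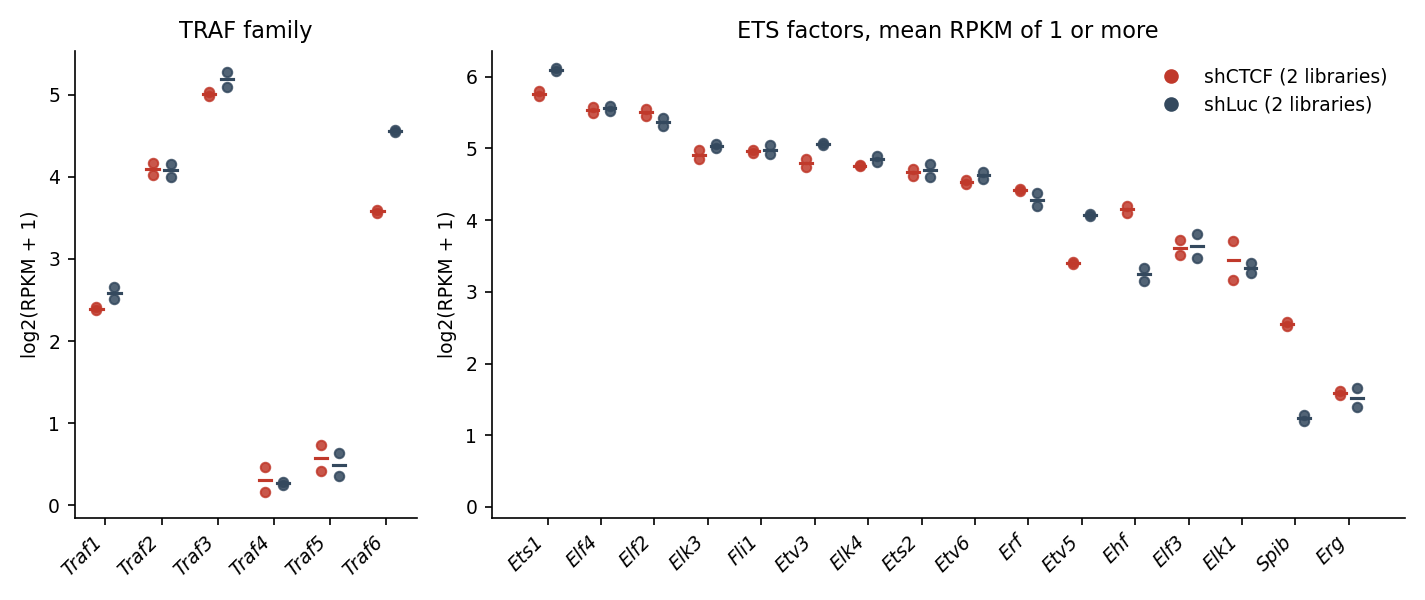
Expression as log2(RPKM + 1) in each library (points, with a line at the mean of 2 libraries) for the TRAF family (left) and the ETS factors with a mean RPKM of 1 or more (right), in shCTCF (red) and shLuc (dark blue) cells. Traf6 in the left panel and Etv5, Ehf and Spib in the right panel show the widest gaps between groups.

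The recombinase genes at the start of the stretch had almost no reads. Rag2 was listed at 0 RPKM in all 4 libraries. Rag1 was listed at 0.069 and 0 RPKM in shCTCF, against 0.0286 and 0.0245 RPKM in shLuc, which corresponds to 2 and 0 reads against 1 and 1. A count of 0 for Rag1 allows up to 3 reads, or 0.0732 to 0.104 RPKM depending on the library, and covers counting error only. No fold is given, because no group is above 3 reads in any library. By contrast Dntt, the polymerase that adds bases at V(D)J junctions and marks immature lymphocytes, averaged 37.6 ± 0.499 RPKM in shCTCF and 45.9 ± 1.52 RPKM in shLuc (SD, n = 2 each, adjusted p = 0.17 in limma).

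Genes that join the ends of recombined DNA were expressed in both groups. All 18 genes of the V(D)J and end-joining list with a row of their own were tested, 0 passed, and the median log2 change was −0.04. Nbn, a sensor of broken DNA ends, lay at 1.57 and 1.81 RPKM in shCTCF, against 3.83 and 3.40 RPKM in shLuc, with an adjusted p of 0.074 in limma (log2 change −0.78, SE 0.16). H2afx and Hmgb2 were the most highly expressed, with log2 changes of 0.26 (SE 0.08, adjusted p = 0.19) and −0.02 (SE 0.10, adjusted p = 0.96) in limma. Of 23 tested factors that act on Rag genes or in early T cells, 1 fell, where 0.596% of all tested genes did. Their log2 changes were negative for 20, with a median of −0.14 beside 0.012 over all tested genes. Whether the list differs from all tested genes was not tested. Bcl11b, a factor of T lineage commitment, fell to 16.4 and 17.9 RPKM in shCTCF, against 25.1 and 27.2 RPKM in shLuc (log2 change −0.58, SE 0.10, adjusted p = 0.035 in limma, and 0.093 to 0.28 with 1 library left out). The most highly expressed of the list, Tcf7 and Ikzf1, had log2 changes of −0.13 (SE 0.08, adjusted p = 0.53) and −0.16 (SE 0.07, adjusted p = 0.37).

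Prr5l, a regulator of mTORC2 (a kinase complex that acts on AKT), was listed at 0 RPKM in both shCTCF libraries, against 0 and 0.0406 RPKM in shLuc, where the value above 0 rests on 1 read. A count of 0 allows 0.122 to 0.172 RPKM. Its paralogue Prr5 was expressed, with 21.0 ± 0.597 RPKM in shCTCF and 19.9 ± 1.81 RPKM in shLuc cells (SD, n = 2 each). Of 14 tested mTORC2 genes 0 passed, with a median of −0.01, and its core subunit Rictor had a log2 change of 0 (SE 0.11). Akt1 and Sgk1 led the list in level and had log2 changes of −0.21 (SE 0.10, adjusted p = 0.39) and −0.02 (SE 0.08, adjusted p = 0.95) in limma.

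Commd9, which encodes a subunit of the endosomal sorting complex that contains COMMD proteins, lay at 4.5 and 5.16 RPKM in shCTCF, against 6.98 and 7.08 RPKM in shLuc. Both shCTCF libraries are below both shLuc libraries, on 23 and 35 against 43 and 51 reads. The ratio of means was 0.688, with a log2 change of −0.46 (SE 0.13), and this was not past the threshold. Of 17 tested COMMD, retriever and WASH genes 0 passed, with a median of −0.08. Commd1, a founding member of the family, averaged 30.1 ± 0.847 RPKM in shCTCF and 39.5 ± 3.37 RPKM in shLuc (SD, n = 2 each, adjusted p = 0.11 in limma). Commd3 and Vps29 led the list in level, with log2 changes of 0.05 and −0.13 (adjusted p = 0.88 and 0.58).

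Ldlrad3, a receptor of the LDL receptor family, lay at 11.8 and 13.4 RPKM in shCTCF and 12.4 and 11.5 RPKM in shLuc. The groups overlap, with a log2 change of 0.07 (SE 0.11) that turned to −0.01 without the shCTCF library headed 3. Of 8 tested NEDD4-type ubiquitin ligases and their adaptors 0 passed, with a median of 0.06. Nedd4, the most highly expressed, had a log2 change of 0.12 (SE 0.08) and Ndfip1 one of −0.05 (SE 0.08), with adjusted p = 0.55 and 0.86 in limma.

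Cd44 had the highest level of the region's genes in both groups. It lay at 63.0 and 66.4 RPKM in shCTCF, against 56.2 and 60.8 RPKM in shLuc, on 1207 and 1687 against 1299 and 1643 reads. All shCTCF values are above the shLuc values, but by less than the distance between the libraries of a group. The log2 change was 0.14 (SE 0.08). Its row joins 6 transcripts, so splice forms with and without variable exons cannot be told apart.

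Of 15 tested genes of hyaluronan turnover, of the ERM proteins that tie CD44 to actin and of related adhesion, the median log2 change was −0.03, with 6 positive and 9 negative. The ERM genes Ezr, Msn and Rdx had log2 changes of −0.10, −0.03 and 0.17 (adjusted p = 0.61, 0.90 and 0.36 in limma), with Msn at 185 ± 6.13 RPKM in shCTCF and 189 ± 0.832 RPKM in shLuc (SD, n = 2 each). Has1, a hyaluronan synthase, was listed at 0 in all 4 libraries, and Has3 had a mean of 0.389 RPKM.

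Pdhx and Apip, which share the head-to-head promoter shown above, both lay higher in shCTCF cells. Pdhx had 21.6 and 21.1 RPKM in shCTCF, against 15.7 and 16.8 RPKM in shLuc, on 237 and 307 against 208 and 260 reads. The groups do not overlap, the ratio of means was 1.31, and the log2 change was 0.37 (SE 0.09). Pdhx was not past the threshold in limma on RPKM. In 12 alternative fits it was not past it either, and in 2 it was. These 2 were limma-voom on recovered reads (log2 change 0.39) and a fit with header number as a replicate block (0.37). With 1 library left out the change of Pdhx was 0.33 to 0.42. The authors' deposited table, from the same libraries, lists Pdhx as changed. Apip had 23.4 and 27.4 RPKM in shCTCF, against 16.5 and 14.6 RPKM in shLuc, on 94 and 146 against 80 and 83 reads. Its groups do not overlap either, and the 2 shCTCF libraries differ more than those of Pdhx. The ratio was 1.63 and the log2 change 0.67 (SE 0.11). Without any 1 library the change of Apip was 0.56 to 0.78 and did not pass. In the authors' deposited table Apip has a log2 fold change of 0.71 and Pdhx one of 0.38.

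Of 13 tested genes of the pyruvate dehydrogenase complex, its kinases and pyruvate import 0 passed, beside 1.29% of all tested genes. Their median log2 change was 0.02. Pdhb and Dlat, catalytic subunits of the complex that PDHX holds together, had log2 changes of 0.15 (SE 0.09) and −0.01 (SE 0.09). Slc16a1 and Dld, the most highly expressed, had 0.04 and 0.09 (adjusted p = 0.92 and 0.72 in limma). Of 13 tested genes of methionine salvage and polyamine synthesis 0 passed, with a median of −0.07. Mri1, Enoph1 and Adi1, which encode the enzymes before and after APIP in the pathway, had log2 changes of 0.04, −0.01 and −0.12, and Srm and Odc1, the most highly expressed, −0.03 and −0.09 (adjusted p = 0.94 and 0.68).

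Ehf lay at 16.2 and 17.3 RPKM in shCTCF, against 7.92 and 9.03 RPKM in shLuc, on 309 and 438 against 182 and 243 reads. Both shCTCF libraries are well above both shLuc libraries. The means were 16.8 ± 0.78 RPKM in shCTCF and 8.47 ± 0.788 RPKM in shLuc (SD, n = 2 each), a ratio of 1.98. The log2 change was 0.91 (SE 0.11), the 55th highest among 9898 genes, and 0.82 to 0.99 with 1 library left out. It did not pass without the shLuc library headed 2 or 3 or without the shCTCF library headed 3. In the authors' deposited table, from the same libraries, Ehf ranks 7th by p-value, with a log2 fold change of 0.97.

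Ehf is an epithelial factor in a T lymphoma line, and markers of epithelial cells were mostly absent. Of 13 epithelial markers with a row of their own, 6 were listed at 0 in all 4 libraries, among them Epcam, Cdh1, Krt8 and Krt18, and 2 were tested. These were Grhl2, with 11.9 ± 0.669 RPKM in shCTCF and 9.83 ± 0.266 RPKM in shLuc, and Elf3, an ETS factor related to Ehf, with 11.3 ± 1.21 RPKM in shCTCF and 11.5 ± 2.05 RPKM in shLuc (SD, n = 2 each). Neither passed (adjusted p = 0.33 and 0.97 in limma). The summed level of the list was 23.7 and 25.3 RPKM in shCTCF, against 23.5 and 21.1 RPKM in shLuc. Few markers of other cell types reached a mean of 1 RPKM. Of 10 B cell markers 1 was tested (Cd22), and Ms4a1 and Pax5 were at 0. Of 12 myeloid markers 4 were tested, with Cd14 at 0, of 9 fibroblast markers Pdgfrb and Thy1, and of 3 erythroid markers none, and 0 of these passed. The summed myeloid markers lay at 17.5 and 18.6 RPKM in shCTCF, against 17.0 and 14.9 RPKM in shLuc. Of the 4 tested ones 2 were higher in value and 2 lower. Among the higher, Cd68 lay at 3.65 and 3.1 RPKM in shCTCF, against 1.7 and 1.46 RPKM in shLuc. The summed B cell markers lay at 2.46 and 2.01 RPKM in shCTCF, against 3.29 and 3.21 RPKM in shLuc. The part of all these markers in the values of Ehf and Spib was not tested.

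Besides Ehf, 15 ETS factors were tested, of which 1 rose and 1 fell, with a median of −0.03. Among all tested genes 0.697% rose and 0.596% fell. Whether the ETS list differs from all tested genes was not tested. Spib, known from B cells and from plasmacytoid dendritic cells, rose to 4.95 and 4.73 RPKM in shCTCF, against 1.44 and 1.29 RPKM in shLuc (log2 change 1.31, SE 0.16, adjusted p = 0.0094 in limma). It did not pass without the shLuc library headed 2 or 3 (adjusted p = 0.15 in both). Etv5 fell to 9.51 and 9.66 RPKM in shCTCF, against 15.6 and 16 RPKM in shLuc (log2 change −0.67, SE 0.10, adjusted p = 0.02 in limma, and 0.084 to 0.22 with 1 library left out). Ets1 and Elf4 were the most highly expressed, with 53.4 ± 2.07 and 45.3 ± 2.03 RPKM in shCTCF and 67.5 ± 1.1 and 46.2 ± 1.64 RPKM in shLuc (SD, n = 2 each, adjusted p = 0.10 and 0.94). Elf5, which directly follows Ehf on the chromosome, was listed at 0 in all 4 libraries.

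The order of levels in the stretch differed between the groups. In shCTCF cells it ran from Cd44 (64.7 RPKM) through Apip (25.4), Pdhx (21.3), Ehf (16.8), Ldlrad3 (12.6) and Traf6 (11) to Commd9 (4.83 RPKM), and libraries of neighbours in that order did not overlap. In shLuc cells it ran from Cd44 (58.5 RPKM) through Traf6 (22.6), Pdhx (16.3), Apip (15.6), Ldlrad3 (12.0) and Ehf (8.47) to Commd9 (7.03 RPKM). There Pdhx and Apip overlapped and cannot be ordered. Traf6 thus stood 6th of 7 in shCTCF cells and 2nd in shLuc cells, and Ehf stood 4th in shCTCF cells and 6th in shLuc cells. RPKM is per length, so levels of different genes can be set side by side, apart from the joined transcripts of Cd44.

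**Figure D3:**
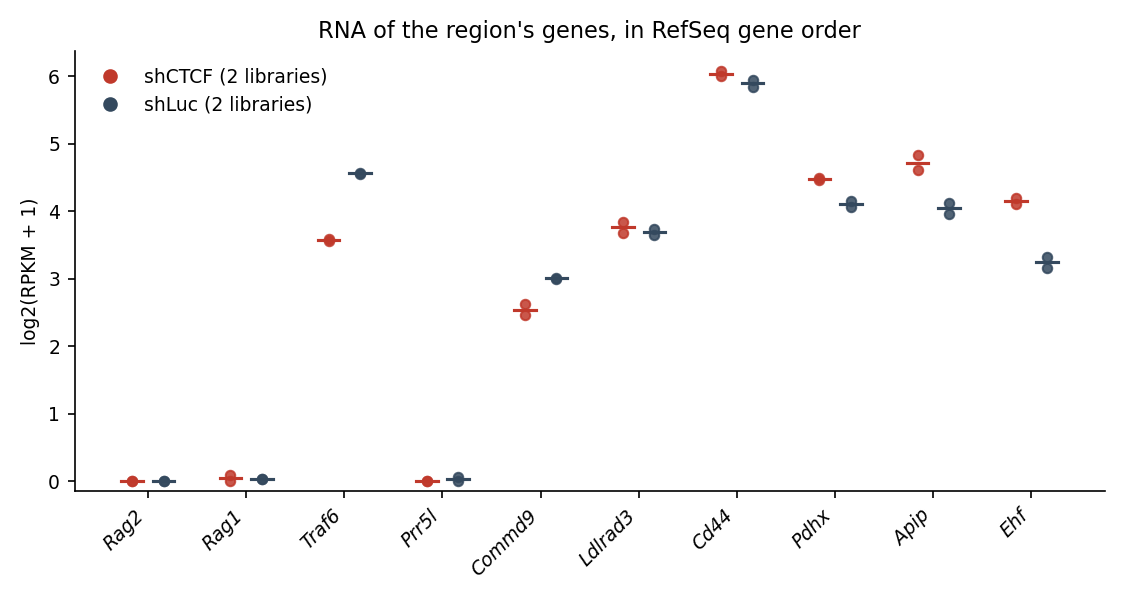
Expression as log2(RPKM + 1) (vertical) of the 10 genes in RefSeq gene order (horizontal), in shCTCF (red) and shLuc (dark blue) cells, with a point per library and a line at the mean of 2 libraries. Traf6 is lower and Ehf higher in shCTCF cells with no overlap, and Rag2, Rag1 and Prr5l lie at or near 0.

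Gene order along the chromosome was taken from RefSeq of the assembly GRCm38.p6, which differs from the mm9 build of the study and served only to tell neighbours. From Rag2 to Ehf it lists 14 protein-coding genes, and the 4 that are not in the named set are Trim44, Fjx1, Pamr1 and Slc1a2, between Ldlrad3 and Cd44. Along this order the log2 changes ran from −0.98 at Traf6 and −0.46 at Commd9 to 0.07 at Ldlrad3, then −0.20, −0.30 and −0.26 at Trim44, Fjx1 and Pamr1. They then ran to 0.14 (SE 0.08) at Cd44, 0.37 (SE 0.09) at Pdhx, 0.67 (SE 0.11) at Apip and 0.91 (SE 0.11) at Ehf. A trend along the order was not tested. Slc1a2, a glutamate transporter, had a mean of 0.0462 RPKM.

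Of the 21 genes between or around the named set that have a row of their own, 13 were tested and 0 passed in limma, with a median of −0.06 (5 positive, 8 negative). Fjx1 lay at 48.4 RPKM in both shCTCF libraries, against 64.3 and 55.6 RPKM in shLuc (adjusted p = 0.20), and Trim44, a ubiquitin-related zinc-binding protein, at 79.9 and 84.1 RPKM in shCTCF, against 93.5 and 95.0 RPKM in shLuc (adjusted p = 0.28). Pamr1 averaged 1.81 ± 0.0654 RPKM in shCTCF and 2.36 ± 0.261 RPKM in shLuc (SD, n = 2 each, adjusted p = 0.58). Beyond Ehf, Cat (catalase), Abtb2, Nat10 and Caprin1 had log2 changes of 0.19, 0.14, 0.06 and −0.07 (adjusted p = 0.47 to 0.84). Fbxo3, Cstf3 and Qser1 on the same side had −0.07, −0.01 and 0.04. On the side of Rag2, Lrrc4c, Api5 and Ttc17 had 0.18, −0.16 and −0.06 (adjusted p = 0.80, 0.45 and 0.88). The other 8, among them Elf5 and Lmo2, had means below 1 RPKM. Whether the genes of the stretch differ from these in their changes was not tested.

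**Figure D4:**
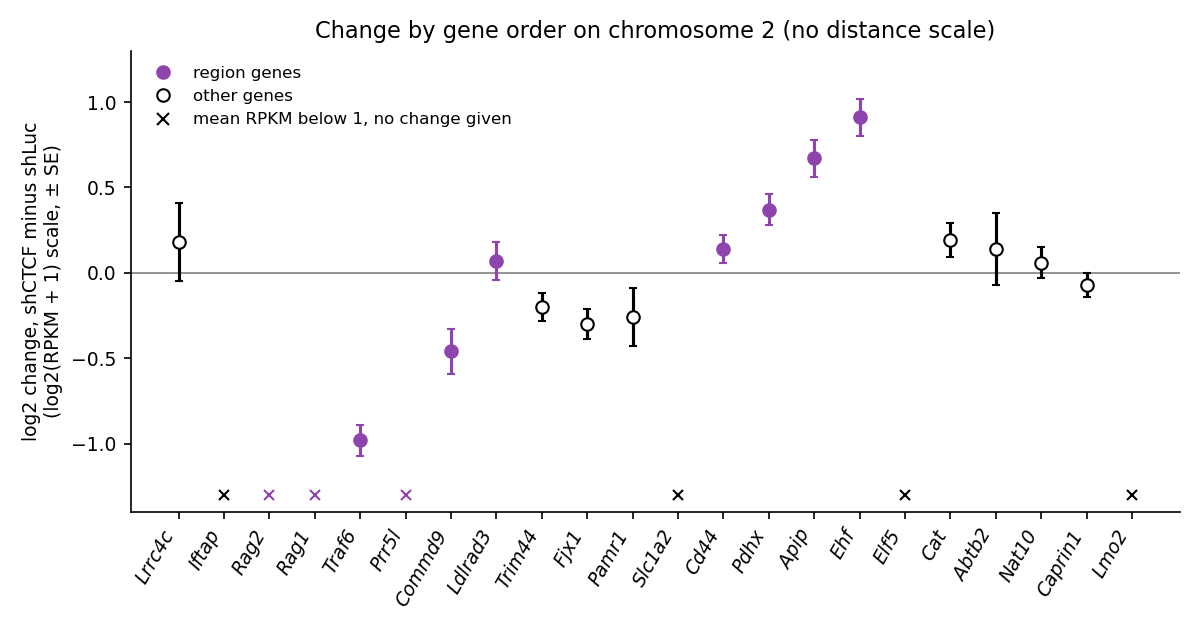
Log2 change (shCTCF minus shLuc, vertical, with SE bars) by gene order on chromosome 2 (horizontal, equal spacing) for the genes of the region (purple) and other genes (open circles), with crosses for genes below a mean RPKM of 1. Values are negative at Traf6 and Commd9, positive from Cd44 to Ehf, and between −0.07 and 0.19 from Cat to Caprin1.

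The tested genes whose pattern over the 4 libraries was most like that of Traf6, by Euclidean distance between log2(RPKM + 1) values centred on the shLuc mean, were Ppa2 (distance 0.119), Ctcf (0.133), Trnp1 (0.178), Ccr9 (0.18) and Il21r (0.19). Ppa2, a mitochondrial pyrophosphatase, lay at 9.5 and 10.7 RPKM in shCTCF, against 19.7 and 21.7 RPKM in shLuc. Trnp1 lay at 8.07 and 7.44 RPKM in shCTCF, against 17.5 and 15.3 RPKM in shLuc. Ccr9 (the chemokine receptor that guides T cells to the gut) and Il21r (the receptor of interleukin-21) had log2 changes of −0.87 and −0.94. These genes were found by their values, so their likeness is a description.

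Within a chromatin domain, loci meet one another more often than they meet loci of other domains. They were called by the authors from 3e Hi-C, a conformation capture in which several restriction enzymes cut the chromatin, in T helper 2 (Th2) cells and in R1 embryonic stem (ES) cells. The Th2 cells were grown with IL-4 from CD4+ cells of C57BL/6 mice sorted for low surface CD44, the product of a gene of the stretch. On chromosome 2 the combined lists hold 158 domains with a median length of 720 kb in Th2 cells and 155 with a median of 840 kb in ES cells. No mm9 gene positions were used here, so none of the 10 genes was assigned to a domain, and whether Traf6 and Ehf lie in the same domain was not tested.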

How the data were processed

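Expression in EL4 cells was taken from a deposited table of RPKM values, with 1 column for each of 4 libraries (2 shCTCF and 2 shLuc). The submitters' processing notes name Bowtie2 and the build mm9. For the counter, its strand setting and the domain caller no name is given in the sources used here. A second deposited table, the authors' list of changed genes, gives log2 fold changes, p-values with an FDR, and log2 mean CPM, and was used for ranks, fold changes and the depth scale. The deposited domain lists give positions on mm9.

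Where a symbol had several rows, that with the highest mean was used. Genes that averaged at least 1 RPKM (9898 of 21844 symbols) were fitted as log2(RPKM + 1) with limma 3.58.1 in R 4.3.3 (trended variances, Benjamini-Hochberg adjustment, threshold 0.05, two-sided). Whole read numbers, up to a common factor per row, were recovered from the RPKM of 98.6% of 7035 rows with 1 transcript (relative tolerance 2e-11), and served for read numbers and for a limma-voom fit. The depth scale was set with the log2 mean CPM of 291 rows, whose offsets had an SD of 0.57, so depths are approximate. Counting limits cover counting error only. The fit was also run on simulated read numbers. Their spread was fixed in advance and not estimated from these libraries, so no conclusion on the real data is drawn from that run.

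The members and the lists were chosen with earlier results of these data known. Named by rule were the 10 members, Ctcf, all tested neighbours, list genes past the threshold, the 2 highest genes of each list, and the 5 genes nearest to Traf6. Other genes named for their role were chosen after their values were seen. Some genes of the lists are not reported here. Promoter sequences come from RefSeq (GRCm38.p6). Figures used Python 3.11.15 with matplotlib 3.10.9.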

Additional observations from a re-analysis of the deposited data

How the results depend on the processing

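With 128 genes passing in limma (69 higher and 59 lower), the count was 0 without the filter on low values (1619 genes had an unadjusted p below 0.05), 60 without the variance trend, 382 of 7532 genes with limma-voom on recovered reads, and 0 to 78 with 1 library left out. It stayed within 1.5 times of 128 under the other pseudocounts, the higher filter, quantile or median scaling and another rule for symbols with several rows. Of the genes of the pathway lists, 5 passed, against 0 without the filter, 3 without the trend and 0 to 2 with 1 library left out. Of the flanking genes 1 fell with limma-voom (Fjx1), and 0 passed under the other alternatives. Traf6 (−0.98), Apip (0.67) and Ehf (0.91) did not pass without the filter, nor Apip (0.67) without the trend. With 1 library left out, where a lone library is assumed to vary like the other group, Traf6 lay between −1.0 and −0.96, Apip between 0.56 and 0.78 and Ehf between 0.82 and 0.99. Ldlrad3 lay between −0.01 and 0.15, with the value below 0 when the shCTCF library headed 3 was left out. Pdhx passed with limma-voom (0.39). The cause of these differences was not tested. Libraries with the same header number had correlated deviations of 0.165, but the labels name no shared batch and there are only 2 pairs. With header number as a replicate block 507 genes passed (294 higher, 213 lower), 9 genes of the pathway lists did, and so did Pdhx (0.37). Alternatives for the domain lists were not run, because no gene was placed in a domain. About 4312000 to 6085000 reads a library limit what can be said of Rag2, Rag1 and Prr5l.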
